A study of Mus musculus with 14 samples.

Results

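Histone H3 lysine 9 crotonylation (H3K9cr) was compared between obstructed and control kidneys of mice that lack ACSS2, using the 4 peak lists that the labels assign to these groups out of 14 libraries analysed here. The 2 UUO libraries came from ACSS2-/- kidneys after unilateral ureteric obstruction (UUO), in which the left ureter is tied off, and the 2 control libraries came from ACSS2-/- kidneys without it. Genes or regions with a peak in both libraries of a condition and in neither library of the other are called gained or lost after UUO. A gene carried a peak when a peak overlapped the 3 kb either side of its annotated start or end by at least 1 bp, and a region is a run of merged peaks of the 4 lists. The knockout was global, made with CRISPR/Cas9, and was shared by both conditions. The methods describe C57BL/6J and ACSS2-/- mice of 6 to 8 weeks and sham surgery, whereas the labels give neither the age, the day after ligation nor the kind of control. Nothing in the labels says that the 2 libraries of a group came from separate animals, so the spread between them may be technical.

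Crotonylation is a histone acylation that sits, like acetylation, at promoters and enhancers of active genes, and its donor is crotonyl-CoA. ACSS2 is an acyl-CoA synthetase that makes acetyl-CoA from acetate and can make crotonyl-CoA from crotonate. Obstruction dilates the tubules, strips the tubular epithelium of its transport programme, draws leukocytes into the interstitium and leads to fibrosis. In a whole kidney, a peak that appears or disappears can come from a change in the number of cells of a type or from a change of the mark per cell, and these cannot be told apart here.

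The targeted gene carried H3K9cr in all 4 libraries. The longest peak at the ends of Acss2 (chr2:155518043-155562743) measured 2719 and 913 bp in the control libraries and 799 and 1583 bp in the UUO libraries, and the conditions overlapped. A promoter peak does not check an exon deletion. Of 47 proximal tubule transport genes, 43 and 39 had a peak in the control libraries, where 62.2% and 60.0% of all protein-coding genes had one. Of 29 nephron transcription factor genes, 26 or 27 had a peak in each of the 4 libraries. The same held for 27 of 29 genes of histone acylation, so the transcription factor count does not show kidney identity. The labels give the H3K9cr antibody catalogue number 540 for the control libraries and 542 for the UUO libraries. Over the series the numbers rise by 1 from group to group for both marks, from 539 to 542 for H3K9cr and from 39017 to 39020 for acetylation (H3K9ac). The methods name the antibodies by mark and supplier only, so whether they differed between groups is unknown. If they did, antibody and obstruction cannot be told apart. The peak names of the library labelled UUO replicate 1 carry the number 3, as do those of WT UUO H3K9cr replicate 1, and those of ACSS2-/- UUO H3K9ac replicates 1 and 2 carry 2 and 3. The replicate numbers used here are those of the labels. Peaks on chromosome Y numbered 5 and 2 in the control libraries, and 14 and 0 in the UUO libraries.

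Promoters where the call rested on a peak over the start site itself are printed first, as they show the bases under the mark. The sequences are from RefSeq on GRCm38.p6 and run 250 bases before to 50 bases after a start site, written 5' to 3' on the strand of the gene. Capitals mark searched motifs. The promoters shown are those of the 6 gained and the 6 lost protein-coding genes with the longest such peaks, ranked by the shorter of the peaks in the 2 libraries. Among the gained, Il21r encodes the interleukin-21 receptor, Arhgap25 a GTPase-activating protein of blood cells, Parvg a focal adhesion protein and Ptprc the leukocyte antigen CD45, whereas Galnt6 encodes a glycosyltransferase and Syt2 a synaptotagmin. Parvg, Syt2, F13b, Gjb1, Hey2, Bhmt and Aadac were chosen after their values were seen.
Il21r (chr7:125603179-125603478, plus strand): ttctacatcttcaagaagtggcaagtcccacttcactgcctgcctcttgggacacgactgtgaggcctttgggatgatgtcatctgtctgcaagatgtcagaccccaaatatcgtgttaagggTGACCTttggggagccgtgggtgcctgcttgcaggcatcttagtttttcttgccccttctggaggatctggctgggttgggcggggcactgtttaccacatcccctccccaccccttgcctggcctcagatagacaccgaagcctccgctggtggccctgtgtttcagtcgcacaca
Galnt6 (chr15:100729327-100729626, minus strand): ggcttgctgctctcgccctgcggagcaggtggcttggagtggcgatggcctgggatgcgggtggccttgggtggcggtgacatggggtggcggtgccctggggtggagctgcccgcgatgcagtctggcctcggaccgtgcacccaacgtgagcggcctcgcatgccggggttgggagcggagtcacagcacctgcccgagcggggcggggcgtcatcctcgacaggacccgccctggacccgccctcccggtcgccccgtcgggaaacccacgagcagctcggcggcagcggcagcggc
Arhgap25 (chr6:87533210-87533509, minus strand): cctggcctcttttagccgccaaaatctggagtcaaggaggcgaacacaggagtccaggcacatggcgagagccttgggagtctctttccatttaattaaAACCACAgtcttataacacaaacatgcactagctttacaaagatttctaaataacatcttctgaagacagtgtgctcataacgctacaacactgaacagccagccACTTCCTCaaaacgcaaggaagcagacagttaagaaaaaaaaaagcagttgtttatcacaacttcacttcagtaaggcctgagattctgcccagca
Parvg (chr15:84324470-84324769, plus strand): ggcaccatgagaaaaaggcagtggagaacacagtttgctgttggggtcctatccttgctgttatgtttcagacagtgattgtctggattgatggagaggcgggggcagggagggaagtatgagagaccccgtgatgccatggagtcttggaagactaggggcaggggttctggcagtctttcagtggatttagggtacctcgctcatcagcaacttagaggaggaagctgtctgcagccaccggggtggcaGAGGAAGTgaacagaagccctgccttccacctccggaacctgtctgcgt
Ptprc (chr1:138175077-138175376, minus strand): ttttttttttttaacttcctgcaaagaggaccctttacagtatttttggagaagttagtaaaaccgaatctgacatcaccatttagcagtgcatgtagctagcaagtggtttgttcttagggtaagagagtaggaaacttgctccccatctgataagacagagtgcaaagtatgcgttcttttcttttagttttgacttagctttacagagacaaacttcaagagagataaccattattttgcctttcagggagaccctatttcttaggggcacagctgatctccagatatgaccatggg
Syt2 (chr1:134646362-134646661, plus strand): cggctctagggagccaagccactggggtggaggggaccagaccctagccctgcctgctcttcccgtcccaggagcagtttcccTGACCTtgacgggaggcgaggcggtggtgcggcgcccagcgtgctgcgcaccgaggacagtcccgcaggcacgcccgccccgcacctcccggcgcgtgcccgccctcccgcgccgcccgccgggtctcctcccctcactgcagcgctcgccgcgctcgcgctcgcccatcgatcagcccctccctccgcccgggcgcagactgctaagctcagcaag
Among the lost, F13b encodes a coagulation factor subunit, Gjb1 a gap junction protein, Trpv5 the calcium channel of the distal tubule, Hey2 a Notch target, Bhmt an enzyme of methionine metabolism and Aadac an esterase.
F13b (chr1:139501457-139501756, plus strand): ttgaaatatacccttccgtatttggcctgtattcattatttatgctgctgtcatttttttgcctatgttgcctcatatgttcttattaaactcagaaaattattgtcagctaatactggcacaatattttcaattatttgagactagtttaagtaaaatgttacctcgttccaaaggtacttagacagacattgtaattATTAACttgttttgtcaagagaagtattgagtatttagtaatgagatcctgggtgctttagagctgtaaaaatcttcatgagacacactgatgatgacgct
Gjb1 (chrX:101376126-101376425, plus strand): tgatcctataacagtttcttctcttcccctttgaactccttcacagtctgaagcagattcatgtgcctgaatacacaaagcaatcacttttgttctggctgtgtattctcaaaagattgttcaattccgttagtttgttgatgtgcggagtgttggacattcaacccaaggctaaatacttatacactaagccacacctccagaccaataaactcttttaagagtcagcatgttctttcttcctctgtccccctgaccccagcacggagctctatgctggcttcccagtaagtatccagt
Trpv5 (chr6:41680674-41680973, minus strand): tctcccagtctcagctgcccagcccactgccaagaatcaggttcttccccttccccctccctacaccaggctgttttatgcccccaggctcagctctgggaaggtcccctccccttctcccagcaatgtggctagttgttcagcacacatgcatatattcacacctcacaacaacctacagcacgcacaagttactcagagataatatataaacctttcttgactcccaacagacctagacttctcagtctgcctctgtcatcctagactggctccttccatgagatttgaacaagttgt
Hey2 (chr10:30842734-30843033, minus strand): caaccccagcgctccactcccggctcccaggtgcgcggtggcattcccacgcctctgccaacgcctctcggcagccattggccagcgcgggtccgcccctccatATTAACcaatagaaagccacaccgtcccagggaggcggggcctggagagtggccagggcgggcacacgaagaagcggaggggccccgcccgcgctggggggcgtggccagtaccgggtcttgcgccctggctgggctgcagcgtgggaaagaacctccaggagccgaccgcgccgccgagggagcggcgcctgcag
Bhmt (chr13:93637709-93638008, minus strand): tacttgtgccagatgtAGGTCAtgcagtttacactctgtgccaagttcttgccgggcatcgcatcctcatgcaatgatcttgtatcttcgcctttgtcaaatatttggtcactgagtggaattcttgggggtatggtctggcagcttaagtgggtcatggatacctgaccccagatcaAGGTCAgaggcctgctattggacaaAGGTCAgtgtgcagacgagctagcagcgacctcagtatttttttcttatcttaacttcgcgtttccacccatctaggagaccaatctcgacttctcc
Aadac (chr3:60031538-60031837, plus strand): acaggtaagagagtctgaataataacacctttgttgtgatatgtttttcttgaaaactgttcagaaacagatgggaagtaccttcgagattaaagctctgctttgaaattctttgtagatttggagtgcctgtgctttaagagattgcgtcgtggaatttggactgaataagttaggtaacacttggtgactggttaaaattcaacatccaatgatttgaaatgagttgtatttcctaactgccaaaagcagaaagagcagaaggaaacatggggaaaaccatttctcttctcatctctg
The capitals in Arhgap25 and Parvg are the PU.1-type ETS letters GAGGAAGT or their complement, with RUNX letters in addition in Arhgap25. Those in F13b and Hey2 are HNF1 letters, and those in Il21r, Syt2 and Bhmt are nuclear receptor letters. Galnt6, Ptprc, Gjb1, Trpv5 and Aadac hold no searched letters in this window. No ACSS2-/- control H3K9cr library had a peak over the gained promoters, and after UUO the peak measured 2719 and 1475 bp at Il21r, 997 and 1095 bp at Galnt6, 3571 and 1072 bp at Arhgap25, 1957 and 1022 bp at Parvg, 1919 and 938 bp at Ptprc, and 942 and 908 bp at Syt2. At the lost promoters no UUO library had an H3K9cr peak. The control peaks over them measured 2485 and 1598 bp at F13b, 1557 and 1564 bp at Gjb1, 1534 and 1526 bp at Trpv5, 1462 and 1601 bp at Hey2, 1194 and 1458 bp at Bhmt, and 1436 and 1510 bp at Aadac. WT kidneys gave the same call at all 6 gained genes and at F13b, Gjb1 and Bhmt, whereas Trpv5 and Hey2 had a peak in all 4 WT H3K9cr libraries and Aadac in some of them.

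Obstructed ACSS2-/- kidneys had fewer and shorter H3K9cr peaks than ACSS2-/- controls. The control libraries held 45014 and 37456 peaks, and the UUO libraries 35638 and 27530. Peaks covered 64.6 and 51.4 Mb in control and 39.7 and 29.4 Mb after UUO, with means of 58.0 ± 9.34 and 34.6 ± 7.24 Mb (SD, n = 2) and a ratio of 0.596. The median peak length was 1017 and 1001 bp in control and 812 and 827 bp after UUO, a gap larger than the difference between libraries of a condition. Broad peaks of 4 kb or more numbered 1969 and 1305 in control against 556 and 252 after UUO, a ratio of 0.247. None of these ranges overlapped, and each gave p = 0.333 in an exact two-sided permutation test, the smallest p that 2 against 2 allows. In WT kidneys the same ratios were 0.967 for the number of peaks, 0.920 for the covered length, 0.965 for the median length and 0.716 for broad peaks. The mean covered length in WT was 43.3 Mb in control and 39.8 Mb after UUO, so ACSS2-/- lay above WT in control and below it after UUO. Broad peaks had the same order, with means of 1637 against 843 in WT in control and 404 against 604 after UUO. H3K9ac peaks covered 51.1 Mb in the ACSS2-/- control library and 34.2 Mb in the WT one, and less after UUO in both genotypes. The UUO effect in ACSS2-/- minus that in WT was -0.25 on the log2 scale for the median length (exact permutation p = 0.0556, the smallest possible), -0.62 for the covered length (exact permutation p = 0.111) and -1.56 for broad peaks (exact permutation p = 0.111), so none passed a threshold of 0.05. The lists hold no read depth, whose part in these differences was not tested.

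**Figure D1:**
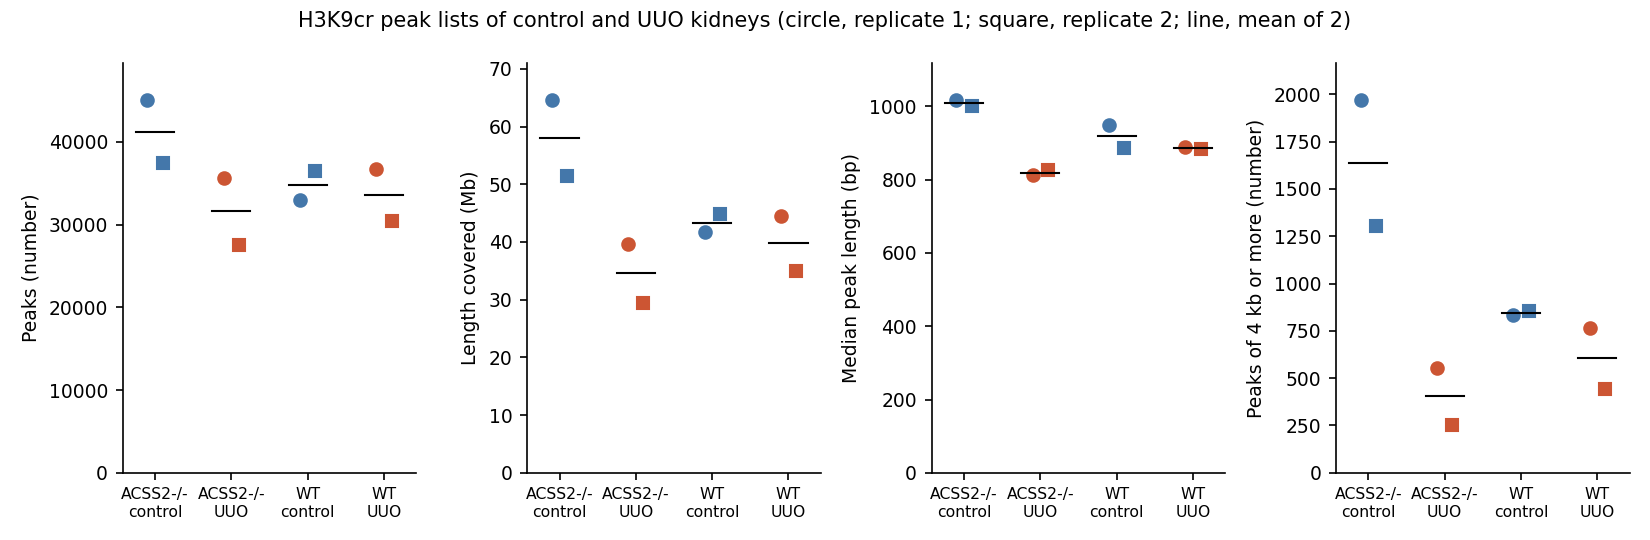
Number of H3K9cr peaks, length covered (Mb), median peak length (bp) and number of peaks of 4 kb or more in each library, with a point per library and a line at the mean of 2. In ACSS2-/- kidneys both UUO libraries lie below both control libraries in all 4 panels, whereas the WT ranges overlap for the number of peaks, the length covered and the median length.

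The loss of covered length was larger among distal peaks than among peaks at gene ends, a contrast that was not tested. Peaks at gene ends covered 0.693 times as much after UUO as in control, and distal peaks, those outside every gene-end window, covered 0.456 times as much. The number of distal peaks was 24220 and 18503 in control and 16347 and 10804 after UUO. The number of genes with a peak overlapped between conditions, at 20051 and 18832 in control and 19277 and 17767 after UUO. Peaks at gene ends accordingly made up 46.2% and 50.6% of all peaks in control and 54.1% and 60.8% after UUO.

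Of 49943 RefSeq genes, 288 gained (0.577%) and 794 lost (1.59%) a peak after UUO, and 16345 had a peak in all 4 libraries. Among the 21887 protein-coding genes, 166 were gained (0.758%) and 250 lost (1.14%). In WT kidneys the direction was the other way round, with 2.01% of protein-coding genes gained and 0.795% lost. The balance in ACSS2-/- kidneys changed with the size of the lists: with only the 27530 longest peaks of each library, 604 genes were gained and 469 lost. Of the 288 gained genes 236 remained gained under that setting (81.9%), and of the 794 lost genes 379 remained lost (47.7%). Single libraries also moved the counts, since a call that rests on 1 library of a condition asks less. Gained genes numbered 1190 without UUO replicate 2, 476 without UUO replicate 1 and 675 without control replicate 1. Lost genes numbered 1549 without UUO replicate 1 and 1735 without control replicate 2. The lost genes were mostly not protein-coding: 358 were lncRNA genes, 135 pseudogenes and 30 miRNA genes, and protein-coding genes made up 31.5% of them against 57.6% of the gained genes and 74.6% of the genes with a peak in all 4 libraries.

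Peaks at gained and lost genes were short. At the gained genes the median longest peak was 788 bp in UUO replicate 1 and 528 bp in UUO replicate 2, against 1650 and 1429 bp at genes with a peak in all 4 libraries. At the lost genes it was 999.5 and 742 bp in the control libraries, against 2056 and 1882 bp. At 16 of the 288 gained genes (5.56%) and 88 of the 794 lost genes (11.1%), a peak behind the call met a peak of the other condition outside the window, so that the peak had changed its extent and not its presence.

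Libraries that took no part in the calls gave independent values. Gained genes had an H3K9cr peak in 83.0% and 77.4% of cases in the WT UUO libraries and in 13.9% and 18.1% in the WT control libraries. Over all genes these shares were 39.1%, 37.3%, 36.4% and 37.5% in the same order. Lost genes had a peak in 54.0% and 61.1% of cases in WT control and in 32.2% and 19.9% after UUO in WT. Thus, over genes of all types, the gained genes stood above the WT background after UUO and below it in control, and the lost genes the other way round. Among protein-coding genes alone, lost genes had a peak in 56.4% and 64.8% of cases in WT control, beside 59.0% and 59.9% of all protein-coding genes. They therefore lay on both sides of that background in control. After UUO in WT they lay below it, at 34.0% and 26.4% beside 62.2% and 60.5%. Of the 288 gained genes 150 (52.1%) were gained in WT too, which is 16.3% of the 920 genes gained there. Of the 794 lost genes 168 (21.2%) were lost in WT, 33.7% of the 498 lost there, and 198 had a peak in neither WT control library.

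Histone H3 lysine 9 acetylation (H3K9ac) was read at the same genes. The paper describes both marks as profiled in the same samples. The ACSS2-/- H3K9ac libraries may therefore share kidneys with the libraries that defined the calls. They had an H3K9ac peak in 35.8% of cases in the ACSS2-/- control library and in 26.7% and 54.9% in the ACSS2-/- UUO libraries, so that the UUO libraries lay on both sides of the control. In WT they had one in 19.4% of cases in control and in 22.9% and 43.4% after UUO, both above the control. Lost genes had an H3K9ac peak in 44.8% of cases in the ACSS2-/- control library and in 5.67% and 13.4% after UUO. In WT they had one in 27.7% of cases in control and in 4.41% and 4.28% after UUO. Over all genes the ACSS2-/- shares were 38.2% in control and 30.7% and 35.4% after UUO. The WT shares over all genes were 34.91% in control and 29.96% and 31.95% after UUO. Lost genes lay below the share over all genes in all 4 H3K9ac libraries of obstructed kidneys. They lay below it in the WT control library too, and above it in the ACSS2-/- control library. Gained genes lay below it in both H3K9ac control libraries and in UUO replicate 1 of each genotype. Only in UUO replicate 2 of each genotype did gained genes lie above it.

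**Figure D2:**
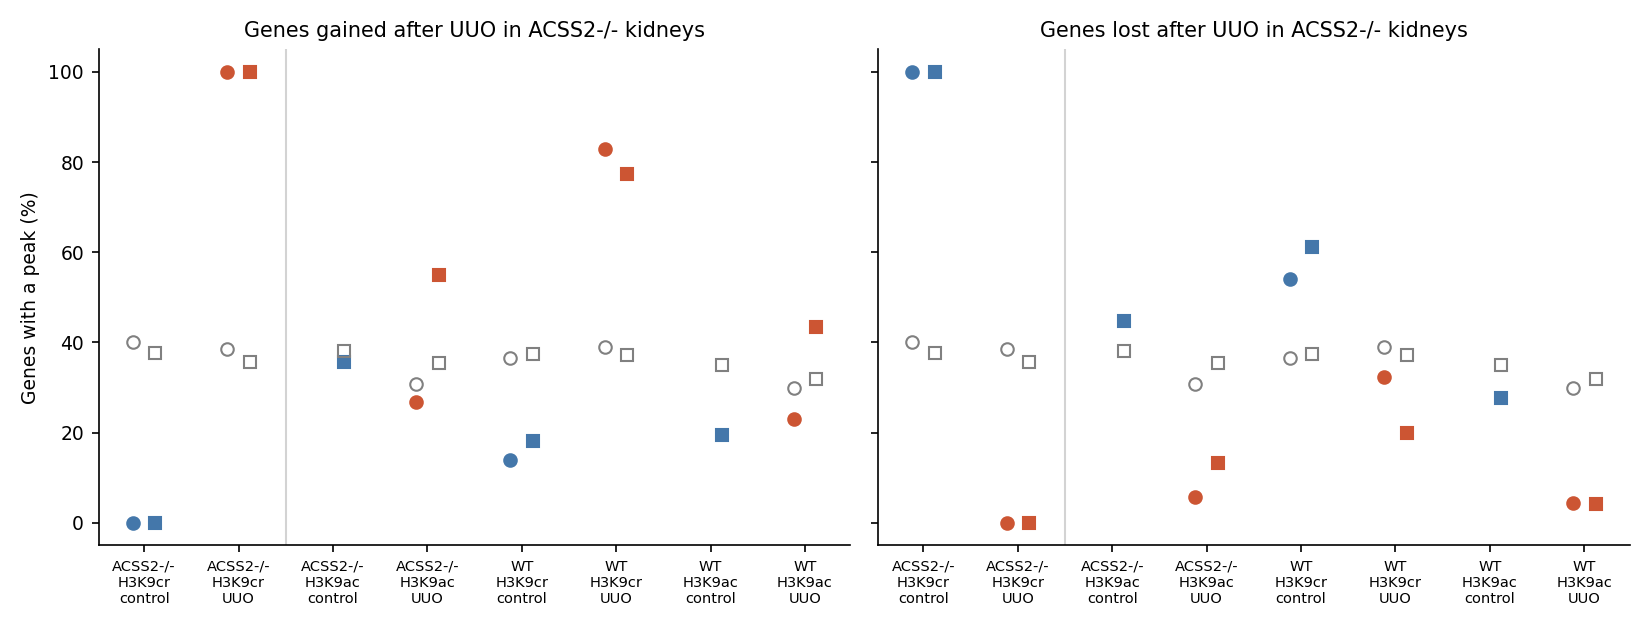
Percentage of the 288 gained (left) and 794 lost (right) genes with a peak in each of the 14 libraries, control in blue and UUO in red, circles for replicate 1 and squares for replicate 2, and open grey symbols for all genes. The 4 libraries left of the vertical line defined the calls, and gained genes reach 83.0% and 77.4% in the WT UUO libraries while lost genes reach 54.0% and 61.1% in the WT control libraries.

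Genes of leukocytes and macrophages led the gained genes. C1qc and C1qb, subunits of the complement component that macrophages secrete, lie side by side on chromosome 4 and share a peak of 3524 bp in UUO replicate 1. In UUO replicate 2 the longest peak measured 2161 bp at C1qc and 1345 bp at C1qb, and no ACSS2-/- control library had an H3K9cr peak at either. Tyrobp, which encodes a signalling adaptor of myeloid and natural killer cells, had peaks of 1648 and 3930 bp after UUO and none in control, although a UUO peak there met a control peak outside the window. Il10ra, the interleukin-10 receptor gene, had peaks of 4011 and 1096 bp after UUO. Ncf4, a subunit gene of the phagocyte NADPH oxidase, had 1841 and 1153 bp, and Rac2, a small GTPase gene of haematopoietic cells, had 1357 and 1133 bp. None of these genes had an H3K9cr peak in control, and UUO replicate 1 held the longer peak at each except Tyrobp. The ACSS2-/- control H3K9ac library did have a peak at C1qc (618 bp), Tyrobp (587 bp), Il10ra (504 bp) and Rac2 (371 bp).

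The remaining gained genes with the longest peaks were of mixed kind. Sh2d2a, an adaptor gene of T cells, had peaks of 1142 and 1426 bp after UUO. S100a2, a calcium-binding protein gene of epithelia, had 1518 and 1252 bp, Slc39a4, a zinc importer gene, 1500 and 1244 bp, and Galnt6, a glycosyltransferase gene, 1273 and 1095 bp. S100a2 and Galnt6 had no H3K9ac peak in any library. The 12 gained protein-coding genes with the longest peaks, Il21r and Arhgap25 included, were all gained in WT kidneys too, where C1qc reached 9547 and 5281 bp.

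**Figure D3:**
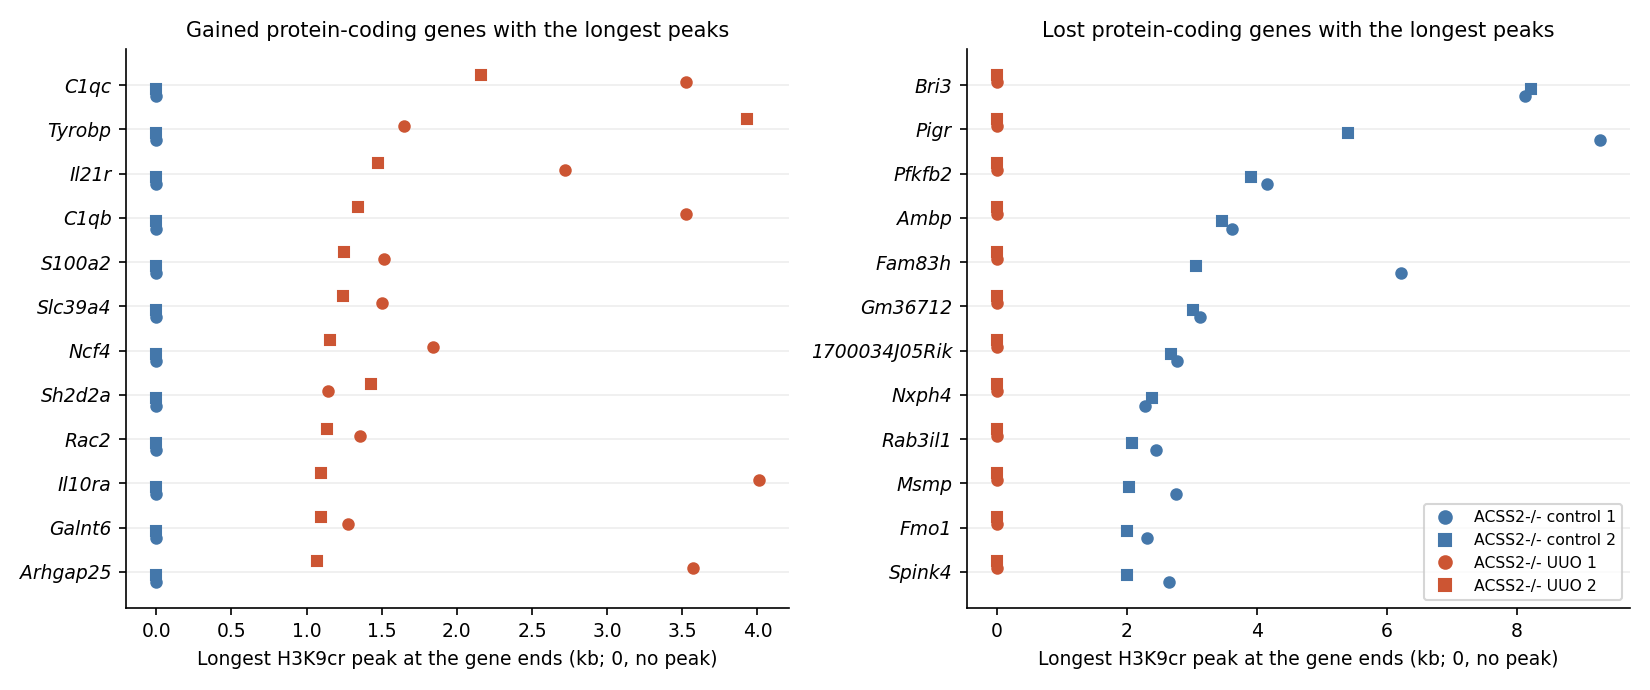
Length (kb) of the longest H3K9cr peak at the ends of the 12 gained (left) and 12 lost (right) protein-coding genes with the longest peaks, in the 2 control (blue) and 2 UUO (red) ACSS2-/- libraries, circles for replicate 1 and squares for replicate 2. Points at 0 are libraries without a peak, and gained peaks reach about 4 kb whereas lost peaks reach 9269 bp at Pigr.

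Marker lists of leukocytes and macrophages held gained genes and no lost genes. Of 32 pan-leukocyte genes, 18 and 12 had a peak in the control libraries and 29 and 23 after UUO, and 7 were gained and 0 lost. Of 35 macrophage genes, 12 and 10 had a peak in control and 26 and 16 after UUO, with 6 gained and 0 lost. The background over protein-coding genes was 0.758% gained, against 21.9% and 17.1% of these lists. In WT kidneys 17 of the 32 pan-leukocyte and 11 of the 35 macrophage genes were gained, beside 2.01% of protein-coding genes. The lists were chosen with results of these data known, and these shares are a description. Beside Ptprc and Rac2, the gained pan-leukocyte genes were Cd48, Was, Lcp2, Dock2 and Sash3, which encode surface, signalling and cytoskeletal proteins of blood cells. Was had peaks of 402 and 554 bp after UUO and Dock2 of 1259 and 549 bp, with none in control. Fcgr1, the high-affinity IgG receptor gene, had 2489 and 315 bp. At equal numbers of peaks 10 pan-leukocyte and 8 macrophage genes were gained, while the gained protein-coding genes as a whole rose from 166 to 362 of 21887. Without control replicate 1 the gained pan-leukocyte genes numbered 14, and without UUO replicate 2 the gained macrophage genes numbered 13. Over all 49943 genes the gained genes rose from 288 to 675 and 1190 under these 2 settings. Without UUO replicate 1, 2 pan-leukocyte genes and 1 macrophage gene were lost, while all lost genes rose from 794 to 1549. Over all 23 lists 30 genes were gained and 14 lost. Without UUO replicate 2 these numbers were 68 and 24, without UUO replicate 1 the lost genes numbered 47, without control replicate 1 the gained genes numbered 54, and without control replicate 2 the lost genes numbered 29.

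Counts at lymphocyte and granulocyte genes stand beside 0.758% of protein-coding genes gained and 1.14% lost. Of 39 T and NK cell genes, 9 and 5 had a peak in control and 14 and 11 after UUO, and 3 were gained, namely the T cell receptor subunit gene Cd3d (615 and 402 bp), the T cell kinase gene Zap70 (329 and 789 bp) and the interleukin-2 receptor gene Il2rb (708 and 400 bp). In WT kidneys 18 of the 39 were gained, beside 2.01% of protein-coding genes. Of 12 B cell genes and 8 neutrophil genes, 0 were gained and 0 lost. Counts of 0 in lists of this size are near the background, and no contrast between cell types is read from them. B cell genes with a peak numbered 3 and 3 in control and 4 and 2 after UUO, and neutrophil genes 2 and 2 against 2 and 1, so both overlapped between conditions.

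Gained genes of cytokine signalling included receptors and ligands. The counts stand beside 0.758% of protein-coding genes gained and 1.14% lost. Of 74 interleukin and interleukin receptor genes 5 were gained and 1 lost, and 32 had no peak in any of the 4 libraries. The gained genes were Il21r, Il10ra, Il2rb, Il1rl1 and Il18r1, and no gene for an interleukin itself was among them. Il1rl1 and Il18r1, which encode the receptors of IL-33 and IL-18, are neighbours that share their longest peaks of 787 and 414 bp after UUO. The lost gene was Il22ra1, the epithelial IL-22 receptor gene, with 899 and 998 bp in control and no peak in any WT H3K9cr library. These neighbours were also the 2 gained genes among 23 of the IL-1 family and inflammasome, where 0 were lost. Of 57 chemokine and chemokine receptor genes 3 were gained, including Cxcl5 (940 and 555 bp after UUO; a peak in all 4 WT H3K9cr libraries) and Cxcl14 (857 and 331 bp). Of 41 TNF superfamily genes 2 were gained, Lta (2286 and 750 bp) and Tnfrsf19 (474 and 854 bp). Among 18 complement genes the 3 gained were C1qa, C1qb and C1qc, and C1qa measured 2077 and 1030 bp.

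Inflammatory and matrix genes and Trp53, which the study measures, and the cell cycle inhibitor genes Cdkn1a and Cdkn2a were neither gained nor lost under the rule. Il1b, which encodes the inflammatory cytokine IL-1β, had a peak of 1645 bp in UUO replicate 1 and none in UUO replicate 2 or in control, while WT kidneys gained it with 390 and 513 bp. Il1r1, its receptor gene, had 1160 and 1227 bp in control and 1328 and 917 bp after UUO, which overlapped. Col1a1, a fibrillar collagen gene, and Il6 showed the pattern of Il1b, with 740 and 825 bp in UUO replicate 1 and no peak in the other 3 libraries. Fn1, which encodes fibronectin, had 1442 and 484 bp in control and 1667 and 1399 bp after UUO. Acta2, the smooth muscle actin gene, had 913 and 363 bp against 1930 and 1264 bp, and these did not overlap. Ccl2 had no peak in any of the 14 libraries. Mmp9 had 1005 and 577 bp in control and 915 bp in UUO replicate 1 only. The cell cycle genes Trp53 and Cdkn1a had a peak in all 14 libraries, and Cdkn2a in all 4 of these, at 1029 and 360 bp in control and 1261 and 337 bp after UUO.

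Interferon and antigen presentation genes carried the mark in nearly all libraries, with 31 of 36 in each control library and 36 and 35 after UUO. The 3 gained genes were Oas1a (1104 and 417 bp), Mx1 (2941 and 813 bp) and H2-Aa (1501 and 672 bp), which stand for an antiviral RNA sensor, a locus of an antiviral GTPase that the annotation lists as a transcribed pseudogene, and a class II antigen-presenting chain. Oas1a had a peak in all 4 WT libraries. Of 38 injured tubule genes only Sox9, a transcription factor gene of regenerating tubules, was gained, with 2200 and 572 bp, and it had a peak in all 4 WT H3K9cr libraries. Of 46 myofibroblast and matrix genes 1 was gained, Tnc, which encodes tenascin-C, with 553 and 336 bp. Lists of senescence genes (22), AP-1 and NF-kB genes (22), nephron transcription factors (29) and enzymes and readers of histone acylation (29) held 0 gained and 0 lost genes. With 0.758% of protein-coding genes gained and 1.14% lost, counts of 0 or 1 in lists of this size are near the background.

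**Figure D4:**
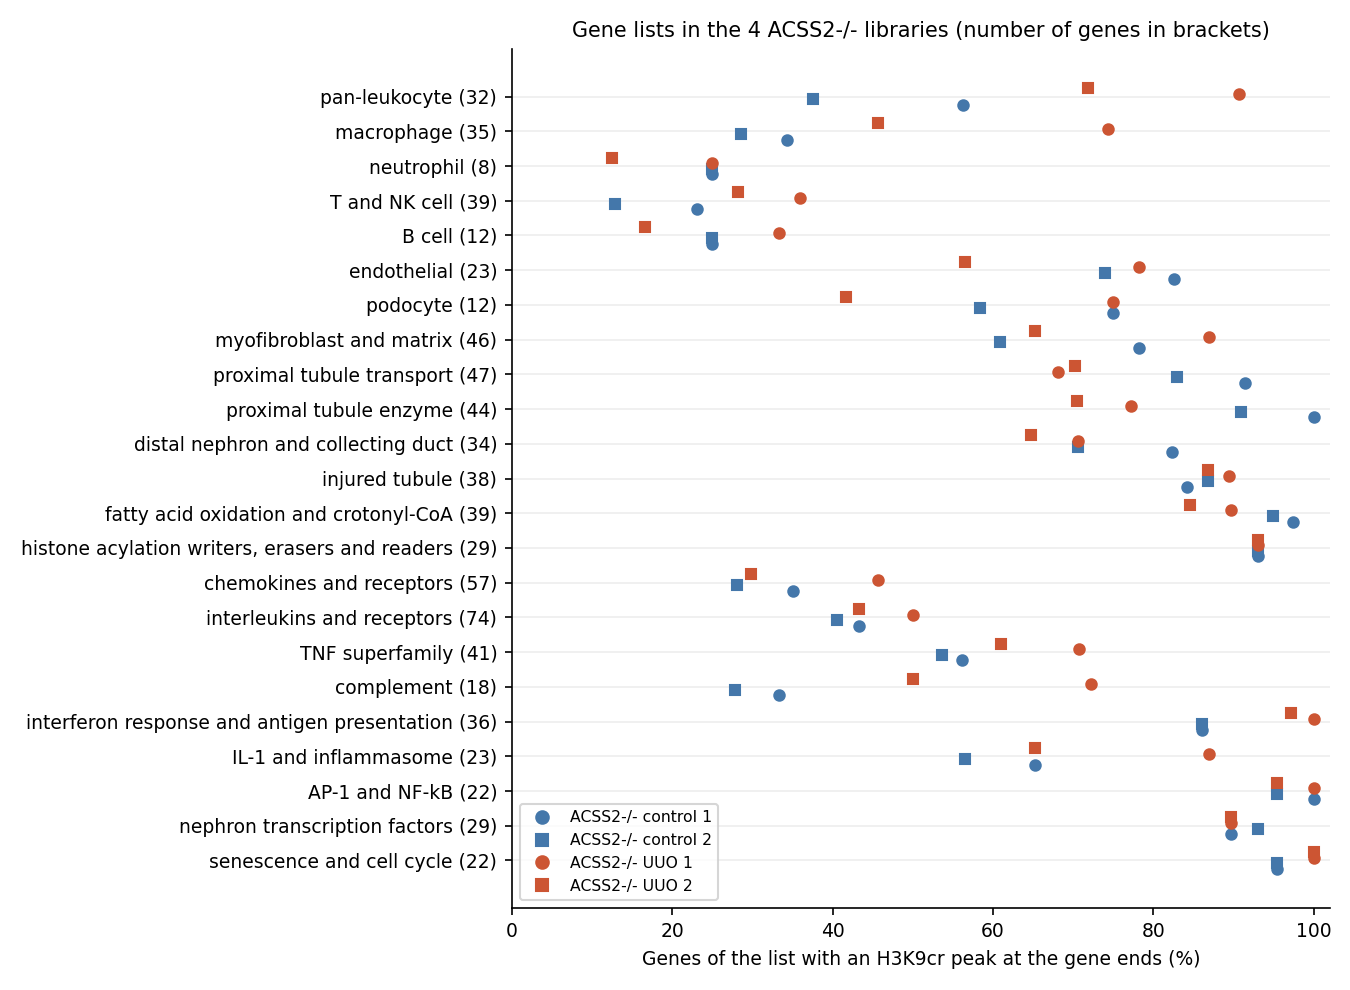
Percentage of the genes of each of 23 lists with an H3K9cr peak in the 2 control (blue) and 2 UUO (red) ACSS2-/- libraries, circles for replicate 1 and squares for replicate 2. UUO libraries lie to the right of both controls for the pan-leukocyte, macrophage, T and NK cell, complement, TNF superfamily, interferon and senescence lists. They lie to the left of both controls for the proximal tubule transport, proximal tubule enzyme and fatty acid oxidation lists.

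The proximal tubule lists held lost genes and no gained genes. Of 47 proximal tubule transport genes, 43 and 39 had a peak in control and 32 and 33 after UUO, with 4 lost and 0 gained. Slc5a12, a lactate and nicotinate carrier gene, had 5074 and 1925 bp in control and no peak after UUO, and was lost in WT too. Slc16a4 had 1017 and 814 bp in control, and the organic anion transporter genes Slc22a19 and Slc22a28 had 338 and 440 bp and 1011 and 518 bp. Of 44 proximal tubule enzyme genes, 44 and 40 had a peak in control and 34 and 31 after UUO, with 3 lost. Cyp4a10 (2717 and 1439 bp) and Cyp4a14 (1316 and 1763 bp) encode fatty acid hydroxylases. Ambp (3616 and 3457 bp), the gene of the α1-microglobulin precursor, was also called, but its control peak met a UUO peak outside the window. The shares of 8.51% and 6.82% lost stand beside 1.14% of protein-coding genes. In WT kidneys 4 transport and 7 enzyme genes were lost and 1 transport gene was gained, beside 0.795% of protein-coding genes lost and 2.01% gained. At equal numbers of peaks 2 transport genes and 4 enzyme genes were lost, while the lost protein-coding genes as a whole fell from 250 to 141. Leaving out 1 library gave 5 to 8 lost transport genes (8 without UUO replicate 2, 7 without UUO replicate 1) and 3 to 9 lost enzyme genes (9 without UUO replicate 1, 7 without control replicate 2, 6 without UUO replicate 2), and 1 gained transport gene without control replicate 1.

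Beside 1.14% of all protein-coding genes lost, the lists of the distal nephron, fatty acid oxidation and other resident cells held 1 or 2 lost genes each, and nothing is read from counts this small. Of 34 distal nephron and collecting duct genes 2 were lost, Trpv5 and Avpr2, the vasopressin receptor gene, which had 1262 and 801 bp in control. Avpr2 had no H3K9cr peak in WT kidneys of either condition. Of 39 genes of fatty acid oxidation and crotonyl-CoA metabolism 2 were lost, Eci2 (744 and 841 bp), an isomerase of fatty acid oxidation, and Cpt1b (1975 and 737 bp), a carnitine palmitoyltransferase gene whose control peak met a UUO peak. The endothelial receptor gene Tie1 (610 and 420 bp) was lost out of 23 endothelial genes, and Clic5 (1255 and 857 bp) out of 12 podocyte genes. A peak in all 4 libraries was present at 33 of the 39 fatty acid oxidation genes, 19 of the 34 distal nephron genes, 12 of the 23 endothelial genes and 5 of the 12 podocyte genes. Without UUO replicate 1 the lost genes numbered 5 in the endothelial list, 4 in the distal nephron list, 4 in the fatty acid oxidation list and 2 in the podocyte list, and without control replicate 2 they numbered 4 in the distal nephron list.

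Of the 12 lost protein-coding genes with the longest peaks, 9 had a control peak that met a UUO peak outside the window. Bri3, which encodes a lysosomal membrane protein, had peaks of 8114 and 8221 bp in control, of which 881 and 934 bp lay in the window, and a peak of 8010 bp in the ACSS2-/- control H3K9ac library. In the WT control libraries its longest H3K9cr peak was 596 and 347 bp. Pigr, the epithelial immunoglobulin transporter gene, had 9269 and 5399 bp in control, and Pfkfb2, a glycolytic regulator gene, 4150 and 3910 bp. Fam83h (6217 and 3058 bp), Gm36712 (3123 and 3020 bp), 1700034J05Rik (2776 and 2672 bp), Nxph4 (2285 and 2387 bp) and Rab3il1 (2442 and 2075 bp) were of the same kind. At these 9 genes the call describes a control peak that reached into the window and a UUO peak that ended outside it. The other 3 had no UUO peak under the control peak: Msmp (2755 and 2025 bp), the flavin monooxygenase gene Fmo1 (2315 and 2008 bp) and Spink4 (2654 and 2000 bp), a protease inhibitor gene.

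Peaks were also narrower after UUO at genes with a peak in all 4 libraries. The length covered in the gene-end windows had medians of 2233 and 2039 bp in control and 1780 and 1534 bp after UUO over 16345 genes, and the median log2 ratio was -0.31. Over the 15600 genes with a peak in all 8 H3K9cr libraries the median log2 ratio was -0.31 in ACSS2-/- and -0.02 in WT. Both UUO values lay below both control values at 54.8% of the genes and above them at 4.09%. With a threshold of 2-fold between the closest libraries, 674 genes were narrowed (4.12%) and 20 broadened (0.122%). Just inside the threshold was Psat1, with 4609 and 5009 bp in control against 2303 and 1826 bp, and just outside it was Thnsl2, with 6462 and 5883 bp against 2834 and 2943 bp. After each library was divided by its own median, 324 genes were narrowed and 83 broadened. Narrowed genes numbered 1424 without control replicate 2, 1980 without UUO replicate 1 and 1214 without UUO replicate 2. Broadened genes numbered 152 and 83 without control replicates 1 and 2, and 35 and 184 without UUO replicates 1 and 2.

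The most narrowed genes kept only short stretches of the mark in their windows after UUO. Methig1 and Mettl7a2, overlapping genes that cannot be told apart, had 1499 and 1219 bp covered in control and 59 and 88 bp after UUO. Trnp1 had 2679 and 3603 bp against 6 and 463 bp. Tprkb had 9803 and 7227 bp against 319 and 1115 bp. The most broadened included genes of innate immunity. Glipr2 had 423 and 94 bp in control and 1691 and 1484 bp after UUO, Tlr9, an endosomal DNA receptor gene, 617 and 685 bp against 5575 and 1489 bp, and Cmklr1, the chemerin receptor gene, 487 and 439 bp against 2878 and 2140 bp. Rgs16 had 69 and 169 bp against 382 and 752 bp, and Padi2, a peptidylarginine deiminase gene, 408 and 672 bp against 2698 and 1571 bp.

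WT libraries, which the calls did not use, gave the following. Of the 540 narrowed genes with a peak in all 4 WT libraries, 348 (64.4%) had less covered in both WT UUO libraries than in both WT controls, against 26.1% of the 15600 genes. Of the 12 broadened genes with such peaks, 10 (83.3%) had more, against 21.5%.

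Width at listed genes is given beside the median of all genes. Among proximal tubule enzyme genes with a peak in all 4 libraries, 27 of 28 had less covered in both UUO libraries than in both controls, with a median log2 ratio of -1.03. For proximal tubule transport genes this was 22 of 27, with a median of -1.19, and for fatty acid oxidation and crotonyl-CoA genes 30 of 33, with a median of -0.72. Distal nephron and collecting duct genes had 14 of 19 and a median of -1.09, endothelial genes 8 of 12 and -0.85, and nephron transcription factor genes 18 of 26 and -0.67. These shares stand beside 54.8% of all genes. Interferon and antigen presentation genes had a median of 0.30, with 10 of 30 having more covered in both UUO libraries, and macrophage genes had 0.43, with 5 of 8, beside 4.09% of all genes. Other immune lists differed from these. Pan-leukocyte genes had 0.22, with 2 of 9, and interleukin and receptor genes -0.07, with 5 of 25. TNF superfamily genes had -0.09, complement genes -0.32 and chemokine and receptor genes -0.37. The injured tubule list had a median of -0.06 and the myofibroblast and matrix list -0.16. The enzymes and readers of histone acylation had -0.18, with 12 of 27 having less covered, nearer to the median of all genes.

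**Figure D5:**
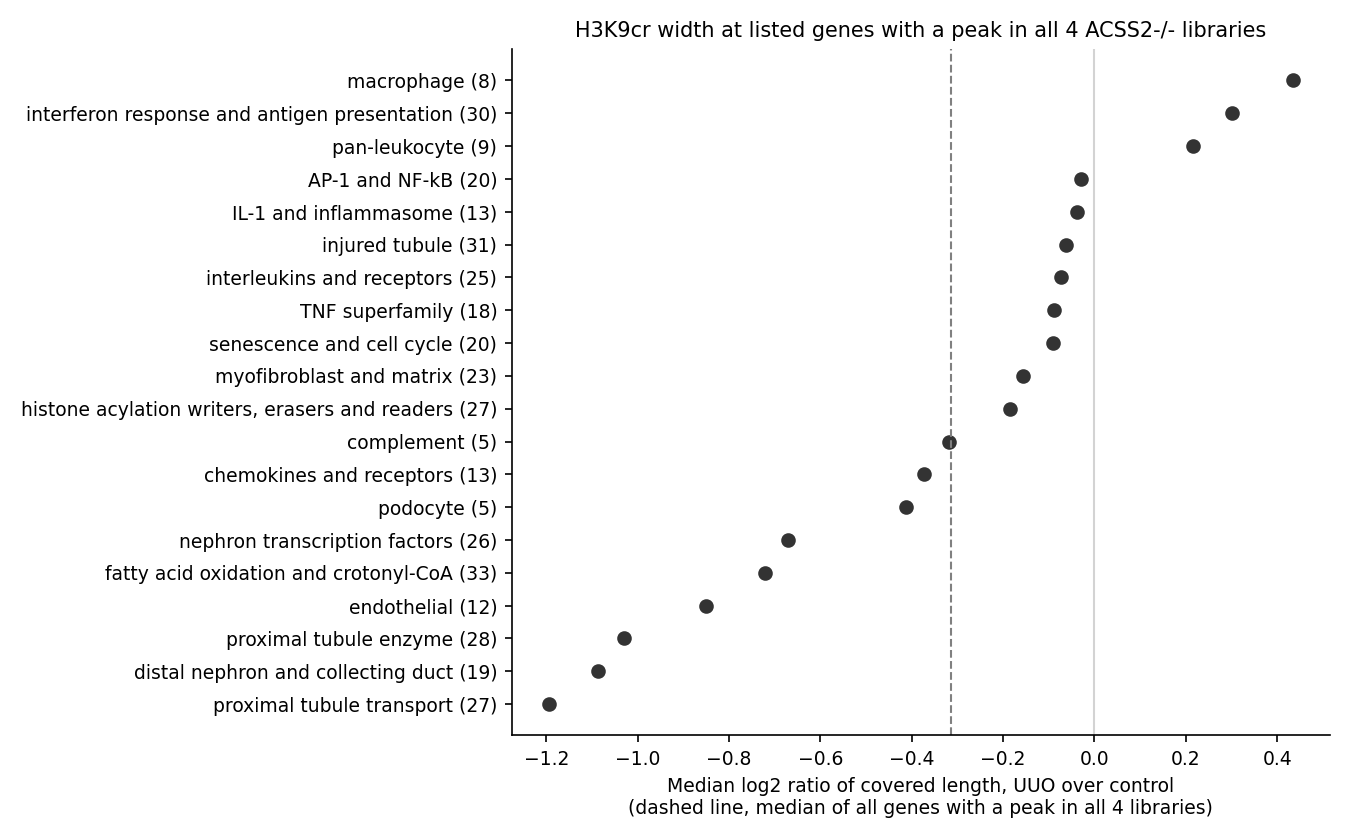
Median log2 ratio (UUO over control) of the length covered by H3K9cr peaks at the gene ends, for the genes of each list with a peak in all 4 ACSS2-/- libraries (number in brackets; lists with at least 5). The dashed line is the median of all such genes, -0.31, and the lists run from -1.19 for proximal tubule transport to 0.43 for macrophage genes.

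A lost region has no UUO peak anywhere in it, and the window only sorts regions into those at gene ends and distal ones. Of 25512 regions at gene ends, 429 were gained (1.68%) and 1748 lost (6.85%), and 12769 had a peak in all 4 libraries. Of 34769 distal regions, 589 were gained (1.69%) and 4548 lost (13.1%), and only 4500 had a peak in all 4 libraries. With equal numbers of peaks 890 distal regions were gained and 2272 lost. Gained distal regions numbered 1209 without control replicate 1, 2148 without UUO replicate 1 and 5647 without UUO replicate 2, and lost distal regions 9818 and 14311 without control replicates 1 and 2. Lost distal regions had a median length of 1150.5 bp, gained 803 bp and those with a peak in all 4 libraries 2149 bp. Their median distance to the nearest end of a protein-coding gene was 24.5 kb for lost and 22.0 kb for gained regions, against 20.9 kb, and 66.8% of the lost and 54.2% of the gained regions lay inside a protein-coding gene.

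Distal calls were set beside the WT libraries, which they did not use. Of the 589 gained regions 213 (36.2%) were gained in WT, where 4.56% of the 34769 regions were, and 2 were lost. Of the 4548 lost regions 1018 (22.4%) were lost in WT, where 6.75% were, and 68 were gained. The lost regions had a WT H3K9cr peak in 49.1% and 53.6% of cases in control and in 23.8% and 11.4% after UUO, and over all distal regions these shares were 31.2%, 35.4%, 33.1% and 24.4%. An H3K9ac peak was present at 29.9% of them in the ACSS2-/- control library and at 1.32% and 5.04% after UUO, while over all distal regions these shares were 26.1%, 6.0% and 13.5%, so that both UUO libraries lay below the control over all distal regions too.

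Of the 5 lost distal regions with the longest peaks, 4 lay inside genes. A region in Ak4 (chr4:101425016-101431373) had peaks of 5521 and 6097 bp in control, a region in Ccdc6 (chr10:70180529-70185135) had 4422 and 4422 bp, and a region in Trak1 (chr9:121351055-121358687) had 6597 and 4372 bp. A region in Ezr, the gene of the microvillus protein ezrin (chr17:6764083-6769945), had 4268 and 5269 bp, and a region 25014 bp from Plau, the urokinase gene (chr14:20868403-20872849), had 4447 and 4166 bp. All 5 also had H3K9cr peaks in both WT control libraries, and at least 1 WT UUO library. By nearest protein-coding gene, Ppargc1a, which encodes the mitochondrial coactivator PGC-1α, had the most lost regions, 12, with 0 gained and 4 present in all 4 libraries. Glis3 followed with 11 lost and 7 present in all 4 libraries. Over all distal regions 13.1% were lost. These counts took no account of how many regions lie near a gene, so no result about these genes is read from them. The gene ends of Ppargc1a themselves had 2430 and 1504 bp in control, 839 bp in UUO replicate 1 and no peak in UUO replicate 2.

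The 5 gained distal regions with the longest peaks included sites inside genes of blood cells. A region in Lrmp (chr6:145120672-145122544), a lymphoid gene, had peaks of 1873 and 1684 bp after UUO, and a region in Ptpn6 (chr6:124731600-124733429), which encodes the leukocyte phosphatase SHP-1, had 1830 and 1587 bp. A region 127875 bp from Klf14 (chr6:31086866-31089561) had 2696 and 1954 bp, a region 14966 bp from Tha1 (chr11:117888493-117891782) 3290 and 1674 bp, and a region in Tnrc18 (chr5:142794022-142796047) 2026 and 1560 bp. By the rule no control library of ACSS2-/- kidneys had an H3K9cr peak there, and both WT UUO libraries had 1 at each of the 5. A WT control library also had an H3K9cr peak at the regions of Lrmp (910 bp), Tha1 (929 bp) and Tnrc18 (349 bp). The ACSS2-/- control H3K9ac library had a peak at those of Ptpn6 (570 bp), Tha1 (423 bp) and Tnrc18 (1159 bp). By nearest gene, Rad51b had the most gained regions, 5, with 5 lost, followed by Ankrd55 with 4 and 2 lost, and Runx1, a transcription factor gene of blood cells, with 4 and 0 lost. Regions present in all 4 libraries numbered 12 at Rad51b, 4 at Ankrd55 and 1 at Runx1. Over all distal regions 1.69% were gained, and these counts likewise took no account of how many regions lie near a gene. Ppargc1a, Glis3, Rad51b, Ankrd55 and Runx1 were taken from the head of counts over all genes, after the values were seen.

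Base composition was read at promoters under gained and lost peaks. A gained peak lay over a promoter of this length, with none there in control, at 39 of 123 protein-coding genes with a promoter sequence (31.7%), and a lost peak at 63 of 193 (32.6%). Peaks lay over a promoter in all 4 libraries at 83.1% of the genes that carried a peak throughout, so most gained and lost peaks lay elsewhere in the gene-end windows. Over all gene types, the 49 gained promoters had a median GC content of 60.7% and 12 CpG sites, the 137 lost promoters 51.0% and 6, promoters marked in all 4 libraries 62.0% and 22, and all 32851 promoters 52.7% and 7.

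Motif letters were searched on both strands. GTTAAT, part of the HNF1 site, were in 0 of 49 gained and 21 of 137 lost promoters (15.3%), against 3.95% of promoters marked in all 4 libraries and 7.10% of all. AGGTCA, the unit of nuclear receptor sites, was in 12.2% of gained and 25.5% of lost promoters, against 11.7% of those marked in all 4 libraries and 16.3% of all. The PU.1-type letters GAGGAAGT were in 5 gained (10.2%) and 3 lost (2.19%) promoters, against 2.99% of those marked in all 4 libraries and 3.20% of all. The general ETS letters CCGGAAG were in 6.12% and 7.30%, against 19.9% and 8.86%. These ETS strings share the run GGAAG. The RUNX letters TGTGGTT were in 8.16% of gained and 3.65% of lost promoters, against 3.23% and 5.27%, and the AP-1 letters TGANTCA in 10.2% and 5.84%, against 4.39% and 7.81%. The C/EBP letters TTGCNNAA were in 10.2% and 12.4%, against 7.69% and 10.8%, whereas the HNF4 letters CAAAGTCCA and the NF-kB letters GGANTTTCC were in 0 gained and 0 lost promoters, against 0.335% and 1.26% of those marked in all 4 libraries and 0.475% and 1.25% of all. These counts describe letters in these windows, with no test.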

How the data were processed

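H3K9cr and H3K9ac ChIP-seq of mouse kidney was represented by 1 peak list per library, 14 in all. Per the methods, the authors cleaned the reads of adapters and low quality before alignment by Bowtie2. Reads that were from organelles, mapped with a quality under 30 or were PCR duplicates were then dropped, and MACS2 called peaks (q value under 0.05). The submitters' processing notes name mm10, Bowtie2, MACS2 and ChIPseeker without versions. Whether MACS2 was given an input control is not given in the sources used here. The deposited lists hold positions and peak names, with no score or count per peak, so that read depth is unknown and no counting interval could be given. RNA-seq of the study was not analysed here.

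Genes were 49943 RefSeq genes of GRCm38.p6 (21887 protein-coding), and an overlap of at least 1 bp with the 3 kb either side of a gene end counted as a peak. Regions were merged peaks of the 4 lists. Gained, lost, narrowed and broadened calls are descriptions with no test. Totals per library were compared by exact two-sided permutation tests, and the UUO effects of the genotypes by permuting genotypes within conditions (36 arrangements). Named genes were Acss2, genes the study measures, Cdkn1a and Cdkn2a, the 12 gained and 12 lost protein-coding genes with the longest peaks in the shorter library, gained and lost genes of 23 lists (724 genes, all matched), the 5 most narrowed and 5 most broadened genes, and the 5 gained and 5 lost distal regions with the longest peaks. Some genes that the rule names are not reported here. The members and lists were chosen with earlier results of these data known. Same-numbered control and UUO libraries were not paired (r = 0.081 between their replicate differences over 22028 genes). Calls were tested on simulated lists, and 0 genes differed from those of bedtools 2.31.1. Python 3.11.15, numpy 2.4.6, pandas 2.3.3 and matplotlib 3.10.9 were used. The alternatives were a window of 1 kb, protein-coding genes only, the start site only, the whole gene, an overlap of 50%, equal numbers of peaks, another definition of regions, a fold of 1.5, scaling by the median, autosomes only, a replicate block and leaving out each library.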

Additional observations from a re-analysis of the deposited data

Results flagged for a closer look

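Genes and regions called in opposite directions in the 2 genotypes were looked at again. After UUO, 19 of the 794 genes lost in ACSS2-/- kidneys were gained in WT kidneys, where 920 of all 49943 genes were gained. Of the 250 lost protein-coding genes 8 were gained in WT (Ube2t, Sdcbp2, Gm14305, Sult5a1, Gm10044, Ctsw, Rtl8b and Armcx2), beside 2.01% of all protein-coding genes. Of the 288 genes gained in ACSS2-/- 0 were lost in WT, where 498 of all genes were lost. Among distal regions 68 of the 4548 lost in ACSS2-/- were gained in WT, and 2 of the 589 gained were lost in WT. Over all 34769 distal regions 4.56% were gained and 6.75% lost in WT, so both distal counts lay below these shares. No difference between genotypes is read from these counts. The calls require both libraries of a condition to go the same way, so their agreement at these genes and regions was fixed by the selection. The difference between genotypes was not tested. The protein-coding genes are named after their values were seen.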

How the results depend on the processing

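The lower number of peaks, length covered and median peak length after UUO kept their direction under every alternative run, on the log2 scale from -0.58 to -0.21, from -0.98 to -0.55 and from -0.31 to -0.29 when each library was left out in turn. The number of genes with a peak went from -0.07 on the log2 scale to 0.027 when every library had the same number of peaks, where the conditions no longer overlapped (exact permutation p = 0.333). Under that setting 604 genes were gained and 469 lost, 890 distal regions were gained and 2272 lost, and 52 listed genes were gained, the last chosen after seeing the data. Gained and lost genes numbered 174 and 398 at start sites only and 166 and 250 among protein-coding genes. Narrowed genes numbered 321 with a window of 1 kb and 367 at start sites only. With a fold of 1.5, 1914 genes were narrowed and 86 broadened, and after scaling by the median 324 and 83. Leaving out each library in turn gave 378 to 1190 gained and 1133 to 1735 lost genes, 727 to 5647 gained and 5443 to 14311 lost distal regions, 927 to 1980 narrowed and 35 to 184 broadened genes, and 32 to 68 gained and 18 to 47 lost listed genes. The cause of these shifts was not tested, apart from a call on 1 library of a condition asking less than a call on 2.

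With the replicate number as a replicate block, the log2 differences were -0.39 for the number of peaks, -0.75 for the length covered, -0.30 for the median length, -0.07 for genes with a peak and 0.25 for the share of peaks at gene ends (exact sign-flip p = 0.5 each, the smallest that 2 pairs allow). With 2 libraries a condition the exact tests used here could not pass 0.05, and without read depth a missing peak cannot be told apart from a peak under the caller's threshold.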
